A study of Homo sapiens with 4 samples.

Results

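The TR15-MeTA5 line was compared with and without tetracycline (Tet). The members are the 2 arrays labeled TR15-MeTA5+Tet and TR15-MeTA5-Tet, of 4 arrays in the series, and they were chosen by their labels alone. TR15-MeTA5 is derived from LNCaP, a human prostate cancer cell line that depends on androgen, and it carries the Tet repressor together with a gene for NFκB (AD)-MBD under a promoter which the repressor holds off until tetracycline is added. The +Tet cells were treated for 4 days, and the -Tet cells were grown in the same medium without the drug. Both arrays therefore hold RNA of cells with the repressor and the construct, and they differ in the drug and in what the drug induces. The line is a single stable transfectant, and the sources used here do not say whether it is 1 clone. There was 1 array per condition, and cells that lack the construct were not analysed here after tetracycline, so that an effect of the drug cannot be told apart from an effect of the construct. The other line, TR9-MeTA14, carries the same construct and is given beside TR15-MeTA5 only at the end.

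In vertebrate cells, methylation of cytosine in CpG dinucleotides of a promoter goes together with silencing of the gene, and methyl-CpG-binding domain (MBD) proteins recognize such methylated DNA. NFκB (AD)-MBD joins this domain to a transcriptional activation domain (AD) of NFκB. In methyl-CpG targeted transcriptional activation (MeTA) the fusion protein is meant to bring transcription to genes with methylated promoters. Prostate cancers, LNCaP among them, are known for methylated promoters of genes such as GSTP1.

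Because the construct is built to recognize CpG dinucleotides, the promoter windows of 5 genes are shown before their values, with each CG in capitals. Each window runs from 250 bases before the transcription start to 50 bases after it, taken from RefSeq on GRCh38.p14 and written 5′ to 3′ along the gene. PYCARD encodes the adaptor ASC (TMS1) of inflammasomes and apoptosis, ANXA2 a calcium-dependent membrane-binding annexin, and GSTP1 a glutathione transferase; all 3 had signals not well above background without tetracycline. KLK3, which encodes prostate-specific antigen, and ARG2, a mitochondrial arginase, are shown for contrast, since both had bright signals without tetracycline. The windows lie at chr16:31202711-31203010 on the minus strand (PYCARD), chr15:60397937-60398236 on the minus strand (ANXA2), chr11:67583562-67583861 on the plus strand (GSTP1), chr19:50854665-50854964 on the plus strand (KLK3) and chr14:67619670-67619969 on the plus strand (ARG2). These 5 were chosen after their values were seen.
PYCARD: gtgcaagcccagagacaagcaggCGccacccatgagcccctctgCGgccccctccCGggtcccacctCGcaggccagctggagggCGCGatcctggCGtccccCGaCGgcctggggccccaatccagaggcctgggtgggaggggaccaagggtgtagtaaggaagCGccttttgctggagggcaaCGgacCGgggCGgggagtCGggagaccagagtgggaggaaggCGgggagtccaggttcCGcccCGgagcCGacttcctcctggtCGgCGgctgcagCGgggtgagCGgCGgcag
ANXA2: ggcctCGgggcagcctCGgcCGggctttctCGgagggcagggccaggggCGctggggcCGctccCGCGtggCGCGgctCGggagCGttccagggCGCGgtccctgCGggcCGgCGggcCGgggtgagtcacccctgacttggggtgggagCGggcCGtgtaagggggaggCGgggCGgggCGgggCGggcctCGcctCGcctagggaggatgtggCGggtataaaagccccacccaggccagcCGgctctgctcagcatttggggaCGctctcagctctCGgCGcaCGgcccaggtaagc
GSTP1: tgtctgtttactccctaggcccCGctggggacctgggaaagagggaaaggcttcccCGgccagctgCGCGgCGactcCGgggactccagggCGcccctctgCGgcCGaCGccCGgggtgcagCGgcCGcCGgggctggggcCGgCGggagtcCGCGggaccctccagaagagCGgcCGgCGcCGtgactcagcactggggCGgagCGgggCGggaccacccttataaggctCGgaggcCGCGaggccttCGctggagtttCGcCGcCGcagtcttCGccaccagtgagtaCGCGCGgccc
KLK3: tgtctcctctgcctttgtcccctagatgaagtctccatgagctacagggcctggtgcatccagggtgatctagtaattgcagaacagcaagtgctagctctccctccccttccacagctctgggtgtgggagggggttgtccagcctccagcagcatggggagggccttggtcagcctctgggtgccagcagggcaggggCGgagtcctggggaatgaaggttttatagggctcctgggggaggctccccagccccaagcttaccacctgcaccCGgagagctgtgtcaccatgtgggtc
ARG2: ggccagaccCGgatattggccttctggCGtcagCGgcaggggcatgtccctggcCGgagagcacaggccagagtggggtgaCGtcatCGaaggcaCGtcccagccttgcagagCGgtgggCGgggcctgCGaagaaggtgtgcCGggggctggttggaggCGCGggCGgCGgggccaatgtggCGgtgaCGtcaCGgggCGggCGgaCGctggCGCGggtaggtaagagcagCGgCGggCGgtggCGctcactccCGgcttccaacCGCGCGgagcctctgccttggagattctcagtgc
The letters CG, which read the same on both strands, occurred 23 times in the window of PYCARD, 32 times in ANXA2, 36 times in GSTP1, 31 times in ARG2 and 2 times in KLK3. At least 1 CG was present in 96.0% of the 35116 windows of all genes, and the median window held 14. As many as in PYCARD were found in 35.8% of all windows, and as many as in GSTP1 in 12.7%. ARG2, which was lower with tetracycline, had nearly as many as ANXA2, which was higher. A count of CG is a description of the sequence and carries no measurement of methylation, which the arrays do not give. CpG content was not compared across all changed genes. Only 72.3% of the genes higher under every scaling had a window, under the 80% set as a minimum. The share was 79.5% of all genes compared and 80.6% of the genes lower under every scaling.

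Cy3-labeled cRNA was hybridized to Agilent whole human genome 4×44K arrays, and the value used is the processed signal of Agilent Feature Extraction, a background-subtracted brightness in arbitrary units left unscaled from array to array. The software's own flag placed 20563 of 34127 probes well above background on TR15-MeTA5-Tet and 21606 on TR15-MeTA5+Tet, control probes left out. No spot was saturated. Probes were paired with 19480 genes, and the brightest probe on these 2 arrays stands for a gene. Signals are given as deposited, and each fold change was calculated after the log2 signals of an array were lowered by its 75th percentile. That percentile lay at a signal of 367 without and 542 with tetracycline, so a gene had to be 1.48-fold brighter on the +Tet array to count as equal. A gene not well above background on 1 array was given a bound, written as "at least", against the lowest signal that still carried this flag on the array (15.4 without and 19.2 with tetracycline) or its own signal where higher. The spread of 10 replicate spots corresponds to an SD of 0.0899 for a log2 ratio, which covers error within the arrays only. With 1 array per condition there is no replicate check, no test was made, and precision is limited by how few arrays there were.

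The arrays carried the marks of LNCaP. KLK3 had signals of 135330.0 and 123470.0 without and with tetracycline, FOLH1 (prostate-specific membrane antigen) of 15397 and 16339.8, and KRT18 (a luminal keratin) of 37462 and 35612. The basal keratins KRT5 and KRT14 and the stromal genes COL1A2, COL3A1, DCN and LUM stayed below this flag on both arrays. The basal keratin KRT15 (97.9 and 141) and the stromal gene COL1A1 (36.4 and 97.6) carried it on both.

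Tetracycline was followed by many more increases than decreases in TR15-MeTA5. Of 14353 genes with a fold change, 1403 (9.77%) were at least 2-fold higher with tetracycline and 324 (2.26%) were at least 2-fold lower. The increases were also larger. At least 10-fold, 281 genes were higher and 7 were lower. Of the 1403 higher genes, 857 were well above background on both arrays and 546 were bounds from a -Tet array that did not measure them well above background. Among the lower genes these numbers were 203 and 121.

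The choice of scaling moved these numbers, the decreases far more than the increases. The comparison was therefore repeated under 6 other scalings and 1 other background correction, and a gene is called higher or lower under every scaling where it passed 2-fold in all 8. This left 902 higher genes (6.28% of the genes compared), or 64.3% of the 1403, of which 120 were at least 10-fold higher in all 8. It left 36 lower genes (0.251%), or 11.1% of the 324. No gene called in either direction turned its sign under any of the 8, so that the lost calls were smaller changes in the same direction. Scalings that shift all log2 changes alike moved them by at most 0.565, too little to turn a 2-fold change, and a bound could not turn by construction. Only quantile normalization and normexp could have turned a sign, among genes measured on both arrays. The fewest lower calls were kept with normexp background correction (79), without scaling (90) and with spike-in scaling (105). The median gene had a log2 change of -0.16 after scaling on the 75th percentile, of 0.27 after scaling on 8 spike-in probes, whose own ratio was 1.10, and of 0.41 without scaling. A 2-fold decrease is thus a decrease relative to most other genes on these arrays.

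**Figure D1:**
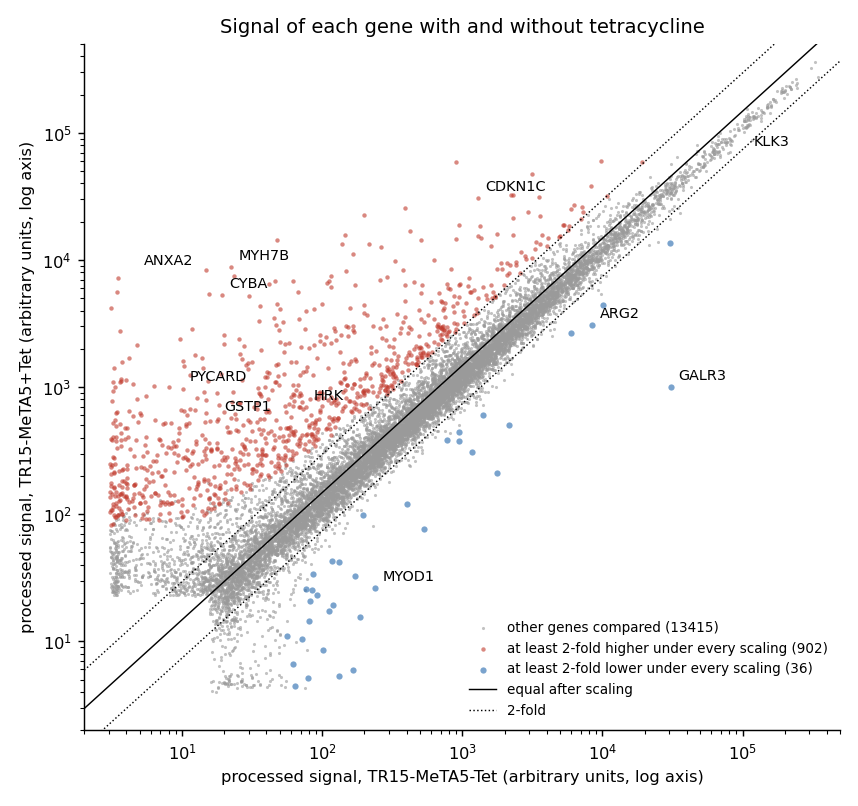
Processed signal of each of the 14353 genes compared, without (x axis) and with tetracycline (y axis) in TR15-MeTA5, in arbitrary units on log axes. The solid line marks equality after scaling and the dotted lines 2-fold; the 902 genes higher under every scaling (red) lie mostly at low -Tet signals, and 36 genes were lower under every scaling (blue).

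**Figure D2:**
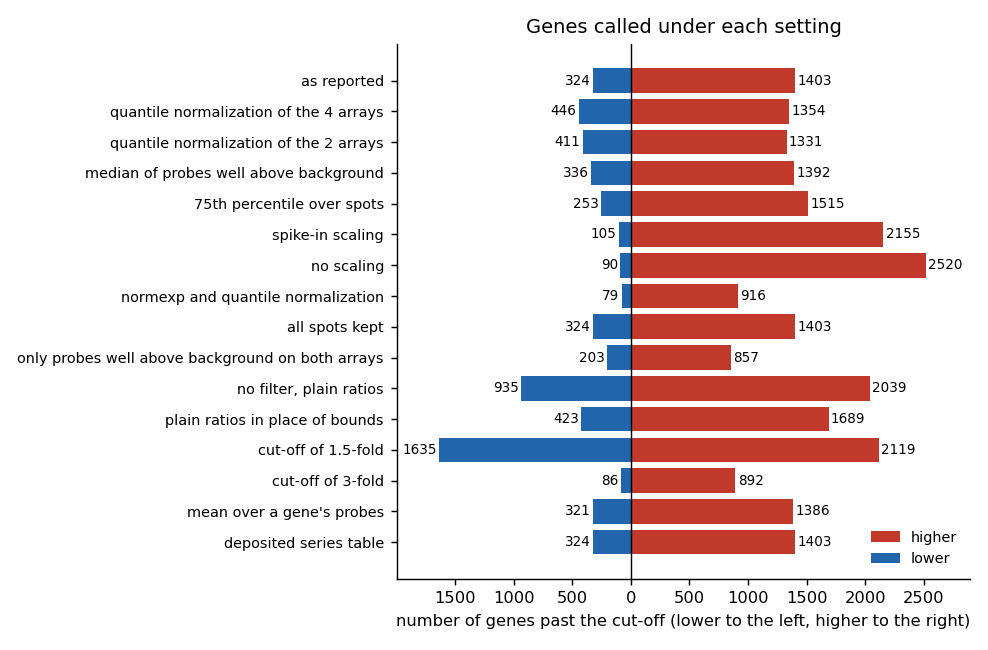
Number of genes past the cut-off in TR15-MeTA5 under the reported setting and each alternative, with higher genes to the right of 0 and lower genes to the left. Higher genes numbered between 857 and 2520 and lower genes between 79 and 1635.

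The share of called genes differed with the signal before tetracycline. The bins are cut on the signal that also divides the fold change, so this is a description only. Of 1042 genes with a fold change that were not well above background on the -Tet array, 546 (52.4%) were at least 2-fold higher, although such a gene received a fold change only by passing the background on the +Tet array, and so had to be higher there. Genes that were well above background without tetracycline were divided into 4 bins of equal size by their -Tet signal. In the dimmest bin (signals of 15.5 to 89.8), 13.1% were at least 2-fold higher and 5.29% lower. In the next bins 7.12% and 3.85% were higher. In the brightest bin, 1.65% were higher. Lower calls were also most frequent in the dimmest bin. The number of genes well above background was 13311 without and 14021 with tetracycline, and 1094 genes were so only with the drug and 384 only without it.

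The largest increase among genes measured on both arrays was that of MYH7B, a myosin heavy chain. Its signal was 22.4 without and 8772 with tetracycline, a 264-fold increase, and it was between 94.4-fold and 391-fold under the 8 scalings. NKX6-2, a homeobox transcription factor of the nervous system, had signals of 23.4 and 7542, or 218-fold. HBA2, an alpha-globin gene, had signals of 47.3 and 14415, or 206-fold, and all 3 of its probes were higher, although alpha-globin genes are near-identical copies whose signals cannot be separated. CYBA, the p22phox subunit of the NADPH oxidase, had signals of 19.1 and 5274, or 186-fold. These 4 genes went from just above background to signals of at least 5274. TKTL1, a transketolase-like enzyme, followed with signals of 29.98 and 5189.8 (117-fold), C1QTNF12, a secreted C1q/TNF-related protein, with 41.6 and 6447 (105-fold), and TPM2, beta-tropomyosin, with 46.2 and 6851 (100.4-fold). Both probes of TPM2 were higher, by log2 changes of 6.65 and 6.78. The list of the 10 largest closed with ATP1B2, a beta subunit of the sodium pump (19.9 and 2547, 86.7-fold), FAM151A (36.2 and 4355, 81.4-fold) and EPS8L1, related to a regulator of the actin cytoskeleton (197 and 22456, 77.0-fold).

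Genes that the -Tet array did not measure well above background gave increases of the same order. ANXA2 had signals of 14.7 and 8271, at least 363-fold, and at least 109-fold under the scaling least favorable to it. Its other, dimmer probe was not well above background without tetracycline either and was at least 2-fold higher (log2 of at least 1.38). HSPA1A, an inducible heat shock protein of the HSP70 family, had signals of 3.51 and 7185, at least 315-fold. Its near-identical neighbor HSPA1B had signals of 3556 and 13409, or 2.55-fold. The HSPA1A probe was not well above background on the array where the HSPA1B probe read 3556. How far the probes separate such copies was not tested, so the change of HSPA1B in particular is uncertain. NEFH, the heavy neurofilament subunit, had signals of 3.40 and 5618 (at least 246-fold), with its other probe at least 2-fold higher as well. ANKRD35 had signals of 15.6 and 5427 (at least 236-fold). TRH, thyrotropin-releasing hormone, had signals of 3.12 and 4224 (at least 185-fold), and CCK, the gut and brain peptide cholecystokinin, of 3.63 and 2738 (at least 120.1-fold). Both encode peptide hormones. Of the remaining 4, ZSCAN5B, a zinc finger gene, had 11.8 and 2839 (at least 124-fold), CLIC3, a chloride intracellular channel protein, 9.72 and 2384 (at least 105-fold), PRRX2, a homeobox factor, 4.79 and 2141 (at least 93.8-fold) and CDH3, P-cadherin, 12.3 and 1784 (at least 78.2-fold).

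**Figure D3:**
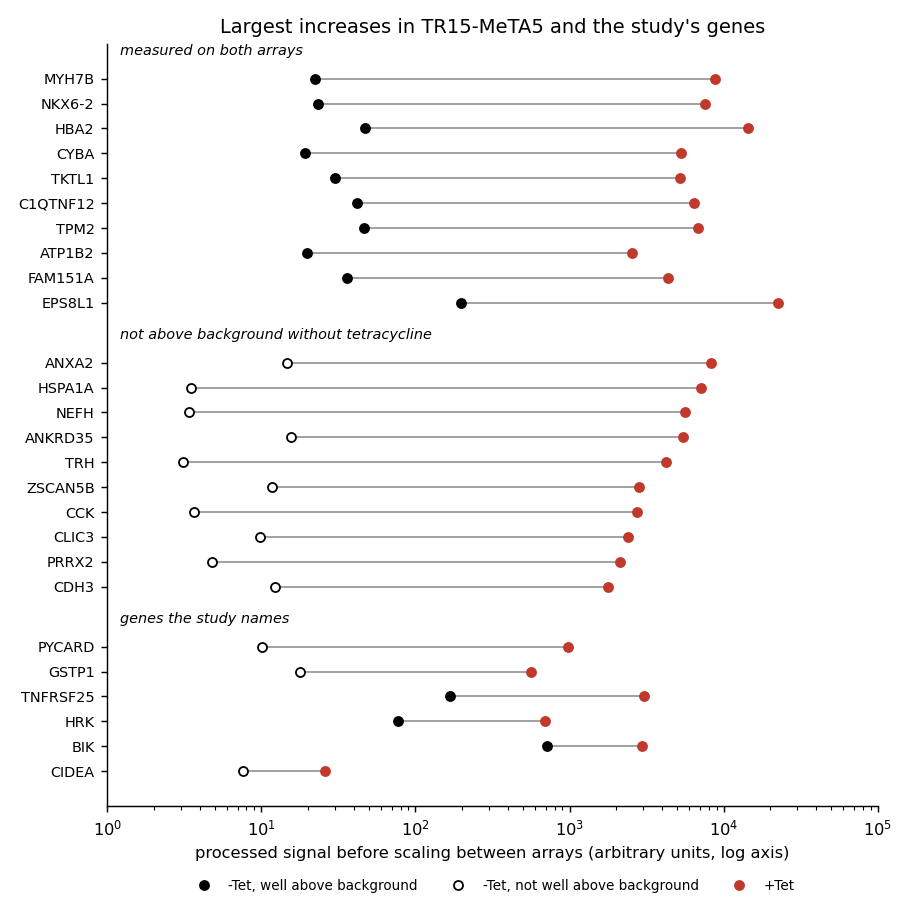
Processed signal (arbitrary units, log axis) of the 10 largest increases measured on both TR15-MeTA5 arrays, the 10 largest bounds, and 6 genes the study names. Black points are -Tet (open where not well above background) and red points are +Tet; PYCARD had signals of 10.1 and 971, and CIDEA of 7.61 and 26.0.

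The study searched for apoptosis genes with this line. PYCARD, read by probe A_23_P26629, had signals of 10.1, not well above background, and 971. Its increase was at least 42.6-fold, and the bound was at least 13.8-fold under each of the 8 scalings. TNFRSF25 encodes a death receptor of the TNF receptor family. Its brighter probe had signals of 167 and 3033, or 12.3-fold (9.54-fold to 18.2-fold), and its dimmer probe was at least 2-fold higher too, with a log2 change of at least 1.44. HRK and BIK are BH3-only genes, whose products neutralize survival proteins of the BCL2 family. HRK had signals of 76.9 and 694 (log2 change 2.61, between 1.87 and 3.17), and BIK of 715 and 2956 (1.48, between 1.47 and 2.05). Both passed 2-fold under every scaling. CIDEA, a gene of the CIDE family, had signals of 7.61, not well above background, and 26.0, an increase of at least 1.14-fold. This bound stayed under 2-fold in all 8, which does not limit the increase from above, so whether CIDEA passed 2-fold is not settled by these arrays.

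Most other listed genes of the death pathways did not pass 2-fold, to be read beside 9.77% of all genes higher and 2.26% lower. TNFSF12, TNF and PYCARD, not well above background without tetracycline, could only be higher. Of 8 BH3-only genes, HRK and BIK were the 2 at least 2-fold higher and none was lower, with BCL2L11 at a log2 change of -0.05 and BBC3 at 0.04. Of 13 death receptor and ligand genes, 3 were at least 2-fold higher, namely TNFRSF25, TNFSF12 (the ligand TWEAK; signals of 10.0 and 95.6, log2 of at least 2.07) and TNF (5.80 and 59.4, at least 1.38). TNF passed 2-fold only in part of the scalings, with its lowest value at 0.49. FAS, with signals of 53.4 and 88.8, had a log2 change of 0.17. None of the 7 listed survival and effector genes of the BCL2 family, such as MCL1 and BAX, and none of the 15 caspase and DNA fragmentation genes passed 2-fold in either direction. BCL2L2, a survival gene, had a log2 change of -0.43. Of 5 inflammasome genes with a fold change, PYCARD was the 1 that passed.

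Several genes known to be hypermethylated in prostate cancer became detectable. Of 25 listed, 5 were well above background without tetracycline and 15 with it. Of the 16 with a fold change, 8 were at least 2-fold higher in all 8 scalings and none was lower, and the median log2 change was 1.42, beside -0.16 for all genes. However, 11 of the 16 received a fold change only by passing background with tetracycline, so they could only be higher. Of the 5 that were well above background without tetracycline, 1 was at least 2-fold higher, and their median was -0.46. For all 13311 genes well above background without tetracycline, 857 (6.44%) were higher and the median was -0.20. The increases of this list thus lie almost wholly in genes not detected before. GSTP1 had signals of 17.9 and 564, at least 21.3-fold. LGALS3, galectin 3, had 10.3 and 1467 (at least 64.3-fold), and RARRES2, the adipokine chemerin, had 15.2 and 1113 (at least 48.8-fold). ANXA2, described above, was the largest of this list. CDH13 did not pass background on either array, and RASSF1, with signals of 2607 and 2804, had a log2 change of -0.46.

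The list with the highest median was that of developmental transcription factors, which in adult tissue are mostly silent outside their own lineages. Of 34 read, 15 were well above background without tetracycline and 26 with it. Of those 26, 19 were at least 2-fold higher, 17 of them under every scaling, and none was lower. The shares of all genes were 9.77% higher and 6.28% higher under every scaling. The median log2 change of the 26 was 2.46, between 1.72 and 3.03 under the 8 scalings. Here too 11 of the 26 received a fold change only through the +Tet array. Among the 15 that were well above background without tetracycline, 11 were higher under every scaling, none was lower, and the median was 2.50. For all 13311 genes well above background without tetracycline, 6.44% were at least 2-fold higher and the median was -0.20. Besides NKX6-2, GATA5, a zinc finger factor of heart and gut, had signals of 4.43 and 1064 (at least 46.6-fold), LHX1, a LIM homeobox factor, 70.2 and 2067 (19.9-fold), and PAX2, a factor of kidney development, 3.19 and 402 (at least 17.6-fold). The dimmer probe of PAX2 was not well above background on either array. NKX6-1, with signals of 6.55 and 29.0, was at least 1.27-fold higher. HOX genes, which set position along the body axis, were higher by less. Of 23 with a fold change, 13 were at least 2-fold higher, 8 under every scaling, and the median was 1.10. The other 10 of the 23 could only be higher. Of the 13 well above background without tetracycline, 7 were higher, beside 6.44% of all such genes, and the median of the 13 was also 1.10. HOXA7 had signals of 17.6 and 361 (at least 13.9-fold), HOXB2 of 3.63 and 143 (at least 6.27-fold), HOXB5 of 99.4 and 706 (4.80-fold) and HOXB8 of 3.26 and 97.8 (at least 4.29-fold). HOXA10 had a log2 change of -0.54 by its brighter probe, while its dimmer probe, with signals of 125 and 478, was 2.57-fold higher. HOXA9 likewise had -0.37 by its brighter probe, while its dimmer probe, with signals of 3.43 and 647, was at least 28.4-fold higher.

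Some genes of other tissues were higher, to be read beside 9.77% of all genes and beside the members that could only be higher. Of 13 neuronal and neuroendocrine genes with a fold change, 7 were at least 2-fold higher, 6 of them under every scaling. Of the 8 that were well above background without tetracycline, 3 were higher and 1 lower. Next to NEFH stood its partner NEFM, the medium neurofilament subunit, with signals of 3.75 and 1579.9 (at least 69.3-fold), INA, an internexin of the same filament class, with 33.6 and 324 (6.51-fold), and CHGA, the granule protein chromogranin A, with 3.63 and 341 (at least 14.9-fold). A single member was lower, and not under every scaling. Of 19 muscle contractile genes, 8 were higher and none lower, and among the 13 well above background without tetracycline 5 were higher. In addition to MYH7B and TPM2 these included ACTA1, skeletal muscle actin (18.3 and 721, 26.7-fold), and MYH7, the slow myosin heavy chain (3.32 and 552, at least 24.2-fold), with both probes of MYH7 higher. Of 11 genes for S100 calcium-binding proteins, 5 were higher under every scaling, 2 of them among the 8 that were well above background without tetracycline. The largest were S100A6 (3.19 and 279, at least 12.2-fold) and S100A10, the partner of annexin A2 (13.9 and 262, at least 11.5-fold). Of 8 annexin genes, ANXA2 and ANXA1 (62.3 and 1039.8, 11.3-fold) were higher, while the median of the annexin list, -0.27, lay below that of all genes.

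Imprinted and germline genes were mixed, to be read beside 9.77% of all genes higher and 6.28% higher under every scaling. Of 15 imprinted genes, 5 were higher under every scaling and none was lower, with a list median of -0.03. Of the 13 that were well above background without tetracycline, 3 were higher, while H19 and MAGEL2 could only be higher. H19, a noncoding RNA, had signals of 8.29 and 334 (at least 14.6-fold), IGF2, the growth factor beside it, 285 and 1022 (2.42-fold), MAGEL2 5.62 and 106 (at least 4.66-fold) and NNAT 80.8 and 499 (4.17-fold). CDKN1C encodes the CDK inhibitor p57. Its signals were 1296 and 30639.5, a 15.99-fold increase that stayed between 15.4-fold and 23.6-fold. Of 9 germline and pluripotency genes with a fold change, 3 were higher, none of them among the 3 that were well above background without tetracycline, with DPPA3 at 3.25 and 279 (at least 12.2-fold), TDRD9 at 3.19 and 83.6 (at least 3.66-fold) and NANOG at 4.24 and 51.0 (at least 2.24-fold, not under every scaling). Cancer-testis genes are also known for methylated promoters. None of the 16 with a fold change passed 2-fold in either direction, and MAGEA1 had signals of 531 and 543. Of 10 genes of DNA methylation and its readers, TET1, an enzyme that oxidizes methylcytosine, was the 1 that passed (6.95 and 383, at least 16.8-fold), while its other probe was not well above background on either array. DNMT1, the maintenance methyltransferase, had signals of 783 and 828.

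The probes of the construct's own homologues did not move together. RELA, the NFκB subunit p65, is read by 2 probes. The one that stands for it had signals of 468 and 2085 (3.01-fold), and the other of 561 and 743 (log2 change -0.16). MBD2 has 1 probe with signals of 3697 and 3887 (-0.49) and 1 with 20.6 and 178 (2.55). Whether any of these also read RNA of the construct was not tested. MBD1 and MBD4 had log2 changes of -0.18 and -0.34. The counts that follow stand beside 9.77% of all genes higher and 6.28% higher under every scaling. Of 9 genes for NFκB subunits and their regulators, RELA, RELB (323 and 2392, 5.01-fold) and REL (51.2 and 159, 2.10-fold, not under every scaling) were higher. Of 16 NFκB target genes with a fold change, 4 were higher under every scaling. Of the 13 that were well above background without tetracycline, 3 were higher, while ICAM1 could only be higher. TRAF1 was lower (26.8 and 4.91, at most -1.04), though not under every scaling. The higher genes were IER3, an immediate early gene (50.1 and 4121, 55.6-fold), TNFAIP2 (505 and 14310.4, 19.2-fold), the adhesion molecule ICAM1 (5.37 and 229.6, at least 10.1-fold) and RELB. NFKBIA, the inhibitor that NFκB itself induces, had signals of 3601 and 6788, or a log2 change of 0.35, and the list median was 0.10. Of 22 interferon-stimulated genes, 6 were higher, 3 under every scaling, and all 6 were well above background without tetracycline. They were led by IRF7, the interferon regulatory factor (1353 and 14797, 7.39-fold), MX1, an antiviral GTPase (54.4 and 293, 3.64-fold), and IFITM1 (1782 and 8453, 3.21-fold). ISG15 had signals of 11109 and 30334 (0.88). None of 13 genes of the class I antigen presentation list passed 2-fold. Of 18 heat shock genes, 5 were higher under every scaling, all of the HSP70 family and including HSPA2 (3.24 and 1409, at least 61.8-fold), while the list median was -0.03. Of the 16 that were well above background without tetracycline, 3 were higher, while HSPA1A and HSPA2 could only be higher.

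Extracellular matrix and cell type genes outside the luminal lineage were partly higher, to be read beside 9.77% of all genes higher and 2.26% lower. Genes not well above background without tetracycline, such as LAMB1, NGFR and THY1, could only be higher. Of 22 collagen, laminin and integrin genes, 7 were higher and none lower, among them COL6A1 (3542 and 31071, 5.93-fold), COL18A1 (365 and 2934, 5.43-fold), COL9A3 (942 and 6382, 4.58-fold) and LAMB1 (9.19 and 256, at least 11.2-fold). Of 10 genes listed for basal epithelium, 6 had a fold change and 3 of these were higher (ITGB4 and NGFR among them). The summed signal of the list, before scaling, was 554 without and 1752 with tetracycline, yet KRT5 and KRT14 stayed below background. KRT15 was well above background on both arrays (97.9 and 141, -0.04). Of 10 stromal genes, 4 had a fold change and 3 of these were higher (VIM, THY1 and ACTA2). The summed signals of the 10, before scaling, were 225 and 2374. VIM, the intermediate filament of mesenchymal cells, had signals of 92.2 and 1697 (12.4-fold), while of 5 defining stromal genes only COL1A1 was detected (36.4 and 97.6). Of 9 leukocyte genes, 5 were higher and 1, CD3E, was lower. Their summed signals before scaling were 8533 and 13914, most of it from CD4 (7062 and 9589, -0.12). The common leukocyte antigen PTPRC had signals of 109 and 105. Of 7 mesenchymal genes, VIM and SNAI1, a repressor of E-cadherin (389.7 and 1583, 1.46), were higher and SNAI2 was lower (35.2 and 24.3, -1.10, not under every scaling). None of 11 keratin genes was higher, and KRT80 was lower under every scaling (76.5 and 25.8, -2.13). The part of other cell types in the other increases was not tested. In bulk RNA, more cells with a transcript and more of the transcript per cell cannot be told apart.

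Luminal and androgen-responsive genes were lower by small amounts. Of all genes, 2.26% were at least 2-fold lower and 0.251% were lower under every scaling. Of 18 androgen-responsive genes with a fold change, none was higher and 3 were at least 2-fold lower, none of them under every scaling. The median log2 change was -0.69, below that of all genes by 0.53 after scaling on the 75th percentile and by at least 0.38 in all 8. Scalings that subtract a single number from each array leave such a difference almost unchanged. Only quantile normalization and normexp could have altered it. KLK3 had a log2 change of -0.70, KLK2 of -0.98 and TMPRSS2, a serine protease, of -0.69, so each missed 2-fold. The 3 that passed were C1orf116 (2268 and 1276, -1.39), CAMKK2, a calcium-dependent kinase (663 and 451, -1.12), and HERC3 (45.0 and 31.2, -1.09). Of 14 prostate lineage genes, KRT19 alone passed (1618 and 1028, -1.22). The pioneer factor FOXA1 had signals of 6630.3 and 6375 (-0.62). Without scaling, the median of the androgen-responsive list was -0.13 and that of the lineage list -0.06, so these decreases are mostly relative to other genes. ERG did not pass background on either array, and ETV1, an ETS factor that LNCaP is known to overexpress, had signals of 1253 and 1079 (-0.78).

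Growth and metabolic genes also lay slightly below the median gene. Their counts of lower genes stand beside 2.26% of all genes. Of 25 mitosis genes, none was higher and 2 were lower, CDK1, the mitotic kinase (4623 and 3258, -1.07), and TOP2A, a topoisomerase (389.8 and 279, -1.05), neither under every scaling. CCNB1 had signals of 4339 and 4508. None of 29 DNA replication genes passed 2-fold, with MCM2, a helicase subunit, at -0.15. The list medians were -0.69 and -0.55, beside -0.16 for all genes. Both stayed below the median of all genes in all 8 scalings, of which only quantile normalization and normexp could have changed this order. The median of replication genes turned to 0.02 without scaling. Of 6 CDK inhibitors with a fold change, CDKN1C was higher and CDKN2C lower (1261 and 725, -1.36, not under every scaling), while CDKN1A had signals of 177 and 242 (-0.12).

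Amino acid stress and sterol genes included clearer decreases, to be read beside 2.26% of all genes lower and 0.251% lower under every scaling. Of 24 genes tied to the stress factor ATF4, 7 were lower and 1 was higher, with a list median of -0.65. TRIB3, a pseudokinase induced in this response, had signals of 10096 and 4397 (-1.76) and was the 1 that was lower under every scaling. SLC7A11, the cystine transporter, had 414 and 243 (-1.34), PHGDH, the first enzyme of serine synthesis, 9276 and 5823 (-1.24), and PCK2, a mitochondrial carboxykinase, 1323 and 849 (-1.20). ATF4 itself had a log2 change of -0.50. Against these, SLC7A5, a subunit of the large amino acid transporter, was 19.3-fold higher (34.6 and 988). Of 22 cholesterol and fatty acid synthesis genes, 3 were lower and none higher, with a list median of -0.66. INSIG1, the sterol sensor of the endoplasmic reticulum, had 1402 and 607 (-1.77) and was lower under every scaling, while SCD, a desaturase (-1.11), was not.

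Metallothioneins, which bind zinc and copper, moved in both directions. The counts here stand beside 9.77% of all genes higher and 2.26% lower. MT1M and GSTM4, not well above background without tetracycline, could only be higher. Of 11 genes, MT1G (5977 and 2684, -1.72), MT2A (21429 and 13001, -1.29) and MT1B (9531 and 6686, -1.08) were lower, MT1G alone under every scaling, and MT1M, at 3.67 and 1154, was at least 50.6-fold higher. Several of these genes are close copies, so a bright signal may hold RNA of more than 1 of them, which was not tested. The MT1M probe was not well above background on the array where MT2A read 21429. Of 23 glycolysis and hypoxia genes, 4 were lower, none of them under every scaling, and 3 higher, with a list median of -0.73. LDHA, lactate dehydrogenase A, was at -1.17 and PGK1, phosphoglycerate kinase, at -1.04, while ADM, the peptide adrenomedullin, was at 2.57 and PFKFB3, a glycolytic regulator, at 1.71. HMOX1, heme oxygenase, had signals of 1131 and 5634 (1.75), and GSTM4, a glutathione transferase, 3.07 and 105 (at least 2.20). They were the 2 antioxidant genes of 25 that passed.

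Housekeeping groups held few genes past 2-fold, beside 9.77% of all genes higher and 2.26% lower. No such group was used to scale the arrays. None of 33 ribosomal protein genes passed 2-fold, and their median of -0.47 lay between -0.48 and 0.10 under the 8 scalings, so its sign depends on the scaling, as does its order relative to the median of all genes, which it exceeded in 3 of 8. None of 29 proteasome genes and none of 11 control genes passed, with ACTB at -0.22 and GAPDH at -0.54. Their list medians of -0.20 and -0.38 were also positive in 2 of 8 scalings. Of 29 oxidative phosphorylation genes, UQCRFS1, the Rieske iron-sulfur subunit of complex III, was the 1 that passed (30469.5 and 13575, -1.73). Of 16 ER chaperone genes, HSPA5 (BiP) was the 1 that passed (272 and 1119, 1.48), with HSP90B1 at -0.12. Among the 10 genes with the brightest probes without tetracycline, 8 of them ribosomal protein genes, log2 changes lay between -0.91 and -0.40.

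**Figure D4:**
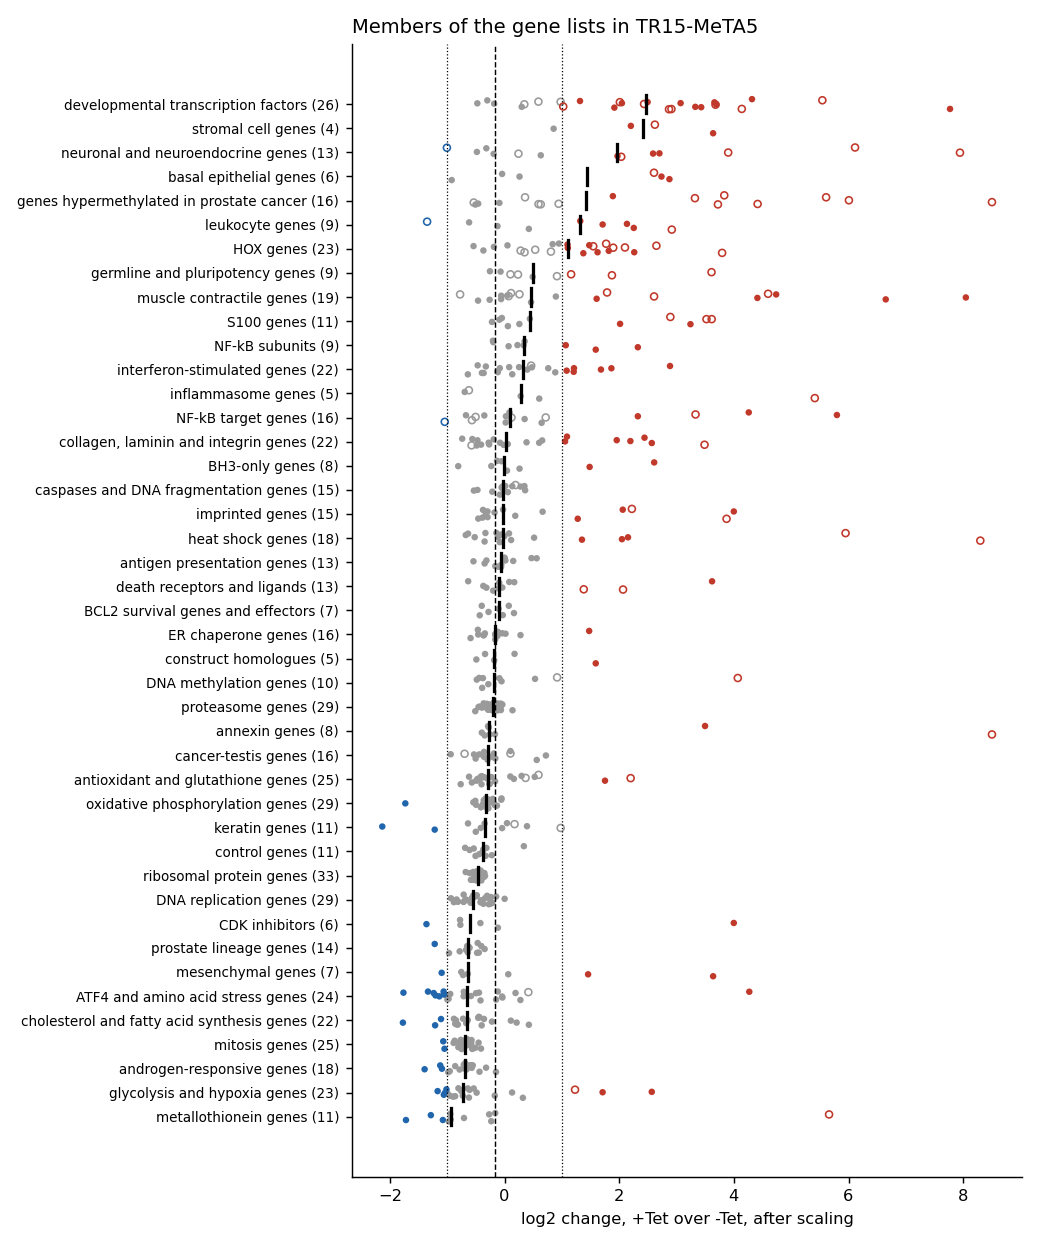
Log2 change (x axis, +Tet over -Tet after scaling) of each member with a fold change in the gene lists with at least 4 such members, with the number in parentheses. Red is at least 2-fold higher, blue at least 2-fold lower, open circles are bounds, black bars the list medians, the dashed line the median of all genes (-0.16) and the dotted lines 2-fold. Members shown as red open circles could only be higher. Developmental transcription factors have the highest median (2.46) and metallothioneins the lowest (-0.94).

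Decreases that held under every scaling were few. All 36 were read from a single spot, as were 871 of the 902 genes higher under every scaling. None of the spots of the 36 was marked as an outlier. Of the 36, 22 were measured on both arrays and 14 were bounds. GALR3, a galanin receptor, had signals of 30796 and 1000.01, a 45.5-fold decrease (log2 change -5.51), the largest by far and the 1 that stayed over 10-fold in all 8 scalings. MYOD1, the myogenic transcription factor, followed with 239 and 26.3 (-3.75). CDC123, a factor in translation initiation, had 1760.2 and 209.7 (-3.63), and ACBD4, an acyl-CoA-binding protein, 533 and 76.7 (-3.36), although the dimmer probe of ACBD4 had a log2 change of -0.28. Next came ZNF780B, a zinc finger gene (171 and 32.6, -2.95), MRPS18A, a mitochondrial ribosomal protein (2163 and 502, -2.67), AMN1 (91.4 and 23.1, -2.55), IFI27L1 (1172 and 309.8, -2.48), SPEM2 (405 and 120.4, -2.31) and IFT74, a protein of ciliary transport (132 and 42.0, -2.22). Among the largest bounds were those of SCGB1D2, a secretoglobin (187 and 15.5, a decrease of at least 14.4-fold), ZNF475 (165 and 5.90, at least 12.7-fold), FSHB, the beta subunit of follicle-stimulating hormone (132 and 5.29, at least 10.2-fold) and ITGBL1 (112 and 17.3, at least 8.60-fold). In 7 of the 36 genes the TR15-MeTA5-Tet array was the only array of the 4 with a signal well above background. Of the 36, 9 had a -Tet signal over 1000, among them ARG2 (8458 and 3083, -2.02), TRIB3, INSIG1, UQCRFS1 and MT1G.

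**Figure D5:**
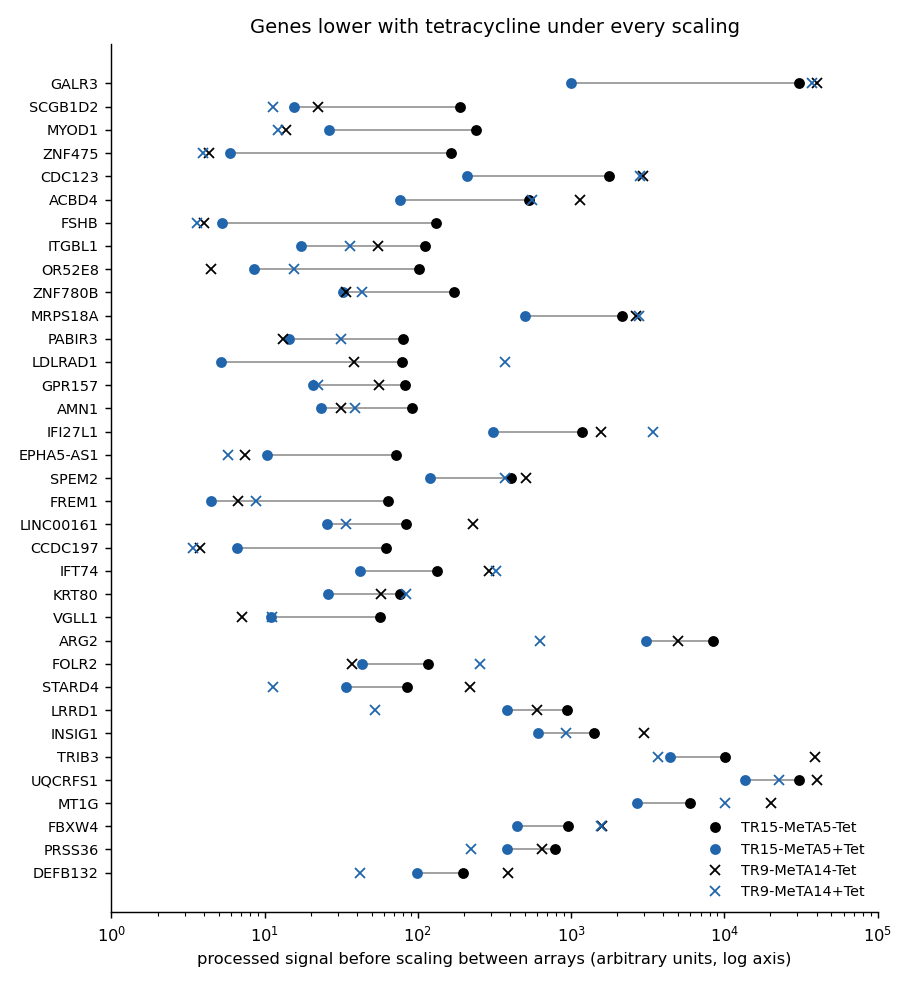
Processed signal (arbitrary units, log axis) of genes lower under every scaling (1 of the 36 is not shown), on both TR15-MeTA5 arrays (circles) and both TR9-MeTA14 arrays (crosses), black without and blue with tetracycline. GALR3 had signals of 30796 and 1000.01 in TR15-MeTA5 and of 40296 and 37379 in TR9-MeTA14.

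The 2 lines were set side by side for the genes called in TR15-MeTA5. They come from the same parental line, carry the same construct and lay on the same slide, so that they are not independent of each other in these respects. Of 891 genes higher under every scaling in TR15-MeTA5 that had a fold change in TR9-MeTA14, 830 (93.2%) were at least 2-fold higher there too, beside 16.8% of all 13978 genes compared in both. Their median log2 change was 2.58 in TR15-MeTA5 and 3.29 in TR9-MeTA14. A gene that the TR9-MeTA14-Tet array did not measure well above background received a fold change there only through the +Tet array. It could thus only be higher, which the 16.8% of all genes does not allow for. Of the 902 genes higher under every scaling, 586 were well above background on all 4 arrays. Of 28 genes lower under every scaling with a fold change in TR9-MeTA14, 13 (46.4%) were at least 2-fold lower there, beside 15.1% of all genes. The decreases shared by both lines included ARG2 (-2.02 in TR15-MeTA5 and -3.32 in TR9-MeTA14), TRIB3 (-1.76 and -3.73), INSIG1 (-1.77 and -2.02), MT1G (-1.72 and -1.33) and UQCRFS1 (-1.73 and -1.16). GALR3 (-0.44 in TR9-MeTA14), CDC123 (-0.41) and MRPS18A (-0.26) were near the level of other genes there.

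Some increases of TR15-MeTA5 had no counterpart of 2-fold in TR9-MeTA14, a difference that was not tested. HLA-DPB1, a class II antigen-presenting chain, had signals of 52.9 and 1256 in TR15-MeTA5 and of 207 and 359 in TR9-MeTA14, or log2 changes of 4.004 and 0.46. PPP1R14A, an inhibitor of myosin phosphatase, had 908 and 14547 against 6575 and 10059, or 3.44 and 0.28. In this gene the -Tet signal was higher in TR9-MeTA14 than in TR15-MeTA5. TMSB4X, an actin-binding thymosin, had 8.80 and 214 against 188 and 255, and CCNO, a cyclin-like protein, 14.9 and 271 against 229 and 395. In both, the TR9-MeTA14 array was well above background before tetracycline and the TR15-MeTA5 array was not. KLK3, by contrast, was at -0.70 in TR15-MeTA5 and -1.95 in TR9-MeTA14, KLK2 at -0.98 and -4.002 and TMPRSS2 at -0.69 and -3.03. CDK1 was at -1.07 and -3.04. With 1 array per condition these differences between the lines could not be tested.

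Probes of the same gene often differed in size. Of 3285 genes with several probes that had a fold change, none had a probe at least 2-fold higher and another at least 2-fold lower. Of 231 such genes called higher, all measured probes passed 2-fold in 50.2%, and in 115 at least 1 did not. Of 32 such genes called lower, all measured probes passed in 8. The mean over a gene's probes gave log2 changes of 4.94 in place of 8.50 for ANXA2, 6.65 in place of 7.69 for HBA2, 6.10 in place of 7.94 for NEFH, 4.96 in place of 6.35 for FAM151A, 5.21 in place of 6.27 for EPS8L1, 2.53 in place of 3.62 for TNFRSF25 and -1.82 in place of -3.36 for ACBD4. Close to the cut-off on the higher side, CUX1 lay just inside with signals of 785 and 2323 and UVSSA just outside with 412 and 1219.5. On the lower side, RDH5 lay just inside with 140.6 and 103.9 and KCNJ5 just outside with 26.0 and 12.9, the latter not well above background.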

How the data were processed

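The authors hybridized Cy3-labeled cRNA of each condition to 1 array, with all 4 arrays on the same slide. They deposited intensity values of every spot from Agilent Feature Extraction (10.7.3.1 in the file headers, 9.5.1 in the submitters' processing notes), background-subtracted and detrended within each array, with no step across arrays. Their series-wide deposited table held the same intensity values.

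From these, log2 signals of a probe's spots were averaged without the spots marked as outliers (328 and 255 on the TR15-MeTA5 arrays), and each array's 75th percentile over non-control probes was subtracted. Probes were named through RefSeq accessions (GRCh38.p14, names and gene order only, since the array was annotated on hg19), which paired 74.5% of 34127 probes with a gene. The study's cut-off of 2-fold was kept. With 1 array per condition no test was made. Python 3.11.15 (numpy 2.4.6, pandas 2.3.3) was used, with limma 3.58.1 in R 4.3.3 for normexp. The code was tested on simulated data.

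Alternatives were quantile normalization of 4 or 2 arrays, the median of probes well above background, the percentile over spots, spike-in probes, no scaling, normexp (offset 50) followed by quantile normalization (these with the reported setting are the 8 scalings), all spots, stricter or no filters, ratios without bounds, a lower (1.5-fold) and a higher (3-fold) cut-off, averaging a gene's probes, and the deposited table. Normexp used median pixel intensities.

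Named are the 10 largest increases and decreases measured on both arrays and the 10 and 5 largest bounds among genes past 2-fold under every scaling, up to 4 called and the first 2 measured members of 43 gene lists, the genes the study names, RELA and the MBD family, and the 10 brightest genes. Some were left unnamed for length or are not reported here, and others were chosen after their values were seen. The members, lists and rules were chosen with earlier results of these data known.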

Additional observations from a re-analysis of the deposited data

Results flagged for a closer look

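A total of 6 genes were at least 2-fold changed under every scaling in TR15-MeTA5 and at least 2-fold changed in the opposite direction in TR9-MeTA14. They are given because of this opposite direction. The difference between the lines was not tested. Of these, 4 were higher in TR15-MeTA5. ACTA2, smooth muscle actin, had a log2 change of 2.20 (signals of 56.7 and 386) against -1.29 in TR9-MeTA14 (63.0 and 32.4). B3GNT5, a glycosyltransferase, had 2.59 (20.1 and 179) against -1.39 (99.97 and 48.1). P2RY1, a purinergic receptor, had 2.14 (37.3 and 242) against -1.06 (28.6 and 17.2). KLHDC8A had at least 2.21 (10.9, not well above background, and 105) against -1.80 (85.7 and 31.0). The remaining 2 were lower in TR15-MeTA5. FOLR2, a folate receptor, had -2.01 (117 and 43.1) against 2.44 (37.1 and 253), and LDLRAD1 had at most -2.60 (78.9 and 5.18, the latter not well above background) against 2.95 (38.4 and 372).

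Probes that were paired with no gene entered no comparison of genes. Of 8708 such probes, 4111 had a fold change in TR15-MeTA5, and 252 of these (6.13%) passed 2-fold upwards and 181 (4.40%) downwards. Under every scaling, 123 were higher and 28 lower.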

How the results depend on the processing

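The 1403 higher and 324 lower genes of TR15-MeTA5 stayed within 1.5 times of these numbers with quantile normalization, the median of probes well above background, the percentile over spots, all spots kept, plain ratios in place of bounds, the mean over a gene's probes and the deposited table, which holds the same values. The numbers moved further under other settings. They were 2155 higher and 105 lower with spike-in scaling, 2520 and 90 without scaling, 916 and 79 with normexp and quantile normalization, 857 and 203 when probes had to be well above background on both arrays, 2119 and 1635 at 1.5-fold, and 892 and 86 at 3-fold. Without any filter, 2039 genes were higher, within 1.5 times, and 935 lower. Of the changed genes, 81.2% were higher in the reported setting, 95.4% with spike-in scaling, 96.6% without scaling, 92.1% with normexp, 75.2% with quantile normalization of the 4 arrays and 56.4% at 1.5-fold. Of 691 named or listed genes with a fold change, 179 were called, and none of their 2262 values under the alternatives turned its sign. Most of the alternatives could not have turned the sign of a 2-fold change. No paired analysis was possible because each condition had 1 array, and for the same reason no replicate could be left out. The fold of a dim gene is limited by background: with normexp on median pixel intensities (offset 50) and quantile normalization, 3 choices changed together, the bound for PYCARD was 13.8-fold in place of 42.6-fold. The spread between cultures is unknown.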

Other observations

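Genes that were at least 2-fold higher in TR15-MeTA5 were in places neighbors along the chromosome. Genes with a fold change were put in the order of the RefSeq table, and runs of at least 3 adjacent genes that were all higher were counted, with no test of how often such runs occur by position alone. There were 33 runs of 3 genes, 7 of 4, 1 of 5 and 1 of 10, and no run of 3 or more lower genes. Of all genes compared, 9.77% were higher and 2.26% lower. With so few lower genes, a run of 3 would be rare in any order, so no contrast is drawn. The longest runs held near-identical copies, whose signals are uncertain, namely 10 PRAMEF genes and the alkaline phosphatases ALPP, ALPG and ALPI with ECEL1 and ECEL1P2. Runs of 4 held unlike genes, as IRF7, CDHR5, SCT and DRD4, or INPP5A, NKX6-2, UTF1 and ADAM8, and a run of 3 held TNFRSF25 with HES2 and ESPN. DPPA3 and NANOG, both named above, stood next to SLC2A3 in another.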
